A study of Mus musculus with 6 samples.

Results

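A set of 10 genes that mark monocytes and macrophages were followed across the libraries: Csf1r, Csf1, Adgre1, Aif1, Ccr2, Cx3cr1, Ly6c2, Plac8, Lyz2 and Mpeg1. They were taken as the rows of the deposited table that carry these symbols, and all 10 were found among its 23494 genes. All 10 lay above 0 TPM (a transcript's share of its library, corrected for its length) in every library, and all 10 passed the filter of a mean of 1 TPM. The 6 libraries came from wild type female C57BL/6 mice that carried tumours of B16F10, a transplantable mouse melanoma line, under the skin of the flank. The 3 libraries labelled vehicle came from mice given phosphate-buffered saline in the peritoneal cavity each day, and the 3 labelled rMANF from mice given recombinant MANF (mesencephalic astrocyte-derived neurotrophic factor) at 2 µg/kg by the same route. Mice of both groups carried the tumour. The sources used here give neither the age of the mice nor the length of treatment. The samples are labelled biological replicates, without naming the animals. The column names of the vehicle libraries begin with IgG, although their treatment is labelled vehicle.

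Monocytes leave the bone marrow, circulate in blood and enter tissues, where they can become macrophages alongside the macrophages that were seeded there before birth. Most of these cells depend on the receptor CSF1R, which binds the growth factors CSF1 and IL-34. The chemokine receptors CCR2 and CX3CR1 are the usual markers of classical and of patrolling monocytes, and F4/80 (Adgre1), IBA1 (Aif1), lysozyme M (Lyz2) and perforin-2 (Mpeg1) are broad macrophage genes. The heart holds both resident and monocyte-derived macrophages.

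The tissue label was checked first. Of 15 heart muscle markers 12 had rows, and they summed to 8.07 to 58.5 TPM over the vehicle libraries and 8.21 to 12.4 TPM over the rMANF libraries. The atrial peptide gene Nppa was listed at 0 TPM in 3 of the 6 libraries and did not pass 0.541 TPM, and the cardiac actin gene Actc1 did not pass 0.905 TPM. These levels go against the label heart, so the tissue is uncertain, the libraries are called by their labels only, and every direction below rests on those labels. The 8 proliferation genes summed to 1208 to 1318 TPM over the vehicle and 1176 to 1213 TPM over the rMANF libraries. Of 8 melanocyte markers 4 had rows. Pmel reached at most 0.341 TPM and Sox10 at most 0.160 TPM, whereas Mitf stood at 7.36 to 12.2 TPM and Gpnmb at 85.4 to 111 TPM with vehicle and 126 to 181 TPM with rMANF, and macrophages express both of these as well. In whole-tissue RNA, fewer cells of a type and less RNA of a gene per cell cannot be told apart.

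Lyz2 and Ly6c2 each have a close copy next to them in the genome, and the printed stretches show where each pair differs most. Lyz2 (chromosome 10, 117277331 to 117282321, minus strand, GRCm38) lies beside Lyz1 (117287797 to 117292868), and Ly6c2 (chromosome 15, 75108158 to 75111970, minus strand) beside Ly6c1 (75044018 to 75048830). The coding sequences of Ly6c2 and Ly6c1 were 97.7% identical, with 9 differences over 396 bases, and those of Lyz2 and Lyz1 95.1% identical, with 22 differences over 447 bases. For each pair the stretch of 60 coding bases with the most differences is printed 5′ to 3′, from GENCODE M21 transcripts on GRCm38, with the bases that differ between the copies in capitals. The Ly6c stretches run from base 6 to base 65 of the coding sequence and the Lyz stretches from base 61 to base 120.
Ly6c2: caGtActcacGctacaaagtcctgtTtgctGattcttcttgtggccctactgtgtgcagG
Ly6c1: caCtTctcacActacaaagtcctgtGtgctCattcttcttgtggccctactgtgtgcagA
Lyz2: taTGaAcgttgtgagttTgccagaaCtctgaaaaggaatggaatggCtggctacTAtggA
Lyz1: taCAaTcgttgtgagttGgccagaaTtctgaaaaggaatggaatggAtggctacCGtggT
Of all stretches of 31 bases in the annotated transcripts of Lyz2, 32.8% also occur in Lyz1, and of those of Ly6c2, 21.4% occur in Ly6c1 and 3.1% in Ly6a. For Csf1r 14.9% were shared, nearly all with Hmgxb3 (14.6%), and for Ccr2 3.48%. For Csf1, Adgre1, Aif1 and Plac8 the share was 0. The level of Ly6c2 in particular depends on how reads common to both copies were divided, a step the sources used here do not describe.

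Most of the 10 genes lay lower in the libraries labelled rMANF, but none passed the test over all genes. On log2(TPM + 1), 9 had a lower mean with rMANF and 1, Csf1, a higher one, where 42.7% of all 12865 tested genes had a negative difference. For 5 of the 10, every rMANF library was below every vehicle library (Adgre1, Aif1, Cx3cr1, Plac8 and Lyz2), against 9.02% of all tested genes, and in the other direction for 0 of the 10, against 18.9%. The median difference over the 10 was −0.56 log2 units, against 0.04 over all tested genes. Limma with Benjamini-Hochberg adjustment over all genes called 0 of the 10 at 0.05 and 0% of all tested genes. At an unadjusted limma p under 0.05, 6 of the 10 lay lower and 0 higher, against 6.63% and 13.9% of all tested genes (20.5% in either direction). After median-of-ratios scaling, 1250 of the 2842 genes at that threshold over the whole table lay lower, against 853 of 2642 without it. At an adjusted p under 0.10 limma called Aif1 and Lyz2, both lower, as it did 0.793% of all tested genes, with 2.73% called in either direction. A difference of −0.5 or lower was found for 6 of the 10, against 5.08% of all tested genes, and of −0.8 or lower for 3 of the 10, against 2.04%.

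**Figure D1:**
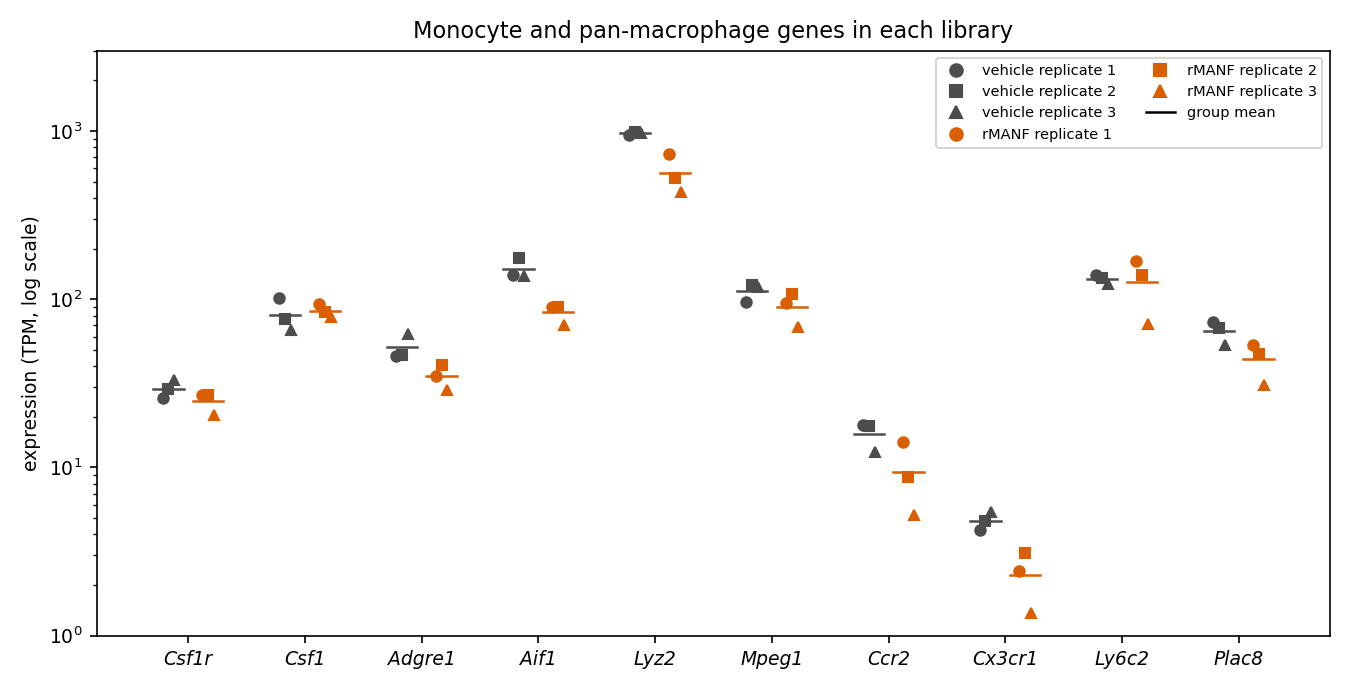
Expression of the 10 genes in each library (TPM, log axis); grey symbols are the 3 vehicle and orange symbols the 3 rMANF libraries, with circle, square and triangle for replicates 1, 2 and 3, and lines for group means. Lyz2 is the most abundant at 433 to 993 TPM and Cx3cr1 the least at 1.37 to 5.43 TPM.

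The broad macrophage genes lay lower to unequal degrees. Lyz2, which encodes the lysozyme that macrophages and neutrophils use to break bacterial cell walls, measured 949, 993 and 973 TPM in vehicle replicates 1, 2 and 3 and 730, 523 and 433 TPM in rMANF replicates 1, 2 and 3. The vehicle libraries lay close together, and every rMANF library lay below them. The means were 972 ± 21.9 and 562 ± 152 TPM (SD, n = 3 each), a difference of −0.82 ± 0.17 log2 units (SE; limma, adjusted p = 0.0931). Lyz1 reached only 1.13 to 8.09 TPM, so that Lyz2 held 99.2% to 99.8% of the sum of both copies, and the sum differed by −0.82 as well.

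Aif1, the gene of the actin-binding protein IBA1 (chromosome 17, 35170991 to 35176068, minus strand), measured 139, 176 and 138 TPM under vehicle, against 90.1, 89.7 and 70.6 TPM under rMANF. The lowest vehicle library lay well above the highest rMANF library. The difference was −0.85 ± 0.13 log2 units (limma, adjusted p = 0.0893), and the mean TPM was 44.7% lower with rMANF. That adjusted p is the lowest over all genes, but other genes share it, among them Ccl8, Fcer1g and Klf4. By unadjusted limma p, Ccl8 (8.41e-05) and Fcer1g (0.00017) lay below Aif1 (0.000246).

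Adgre1, the gene of the adhesion receptor F4/80 (chromosome 17, 57358691 to 57483527, plus strand), measured 46.1, 46.8 and 62.2 TPM under vehicle, against 35.2, 40.6 and 28.9 TPM under rMANF. The groups did not overlap, although vehicle replicate 1 and rMANF replicate 2 were close. The difference was −0.55 ± 0.16 (limma, adjusted p = 0.128). Mpeg1, which encodes the pore-forming perforin-2 (chromosome 19, 12460779 to 12465283, plus strand), measured 96.2, 121 and 119 TPM under vehicle, against 95.6, 108 and 68.0 TPM under rMANF. Its groups overlapped, since rMANF replicate 2 lay above vehicle replicate 1, and the difference was −0.32 ± 0.17 (limma, adjusted p = 0.335).

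**Figure D2:**
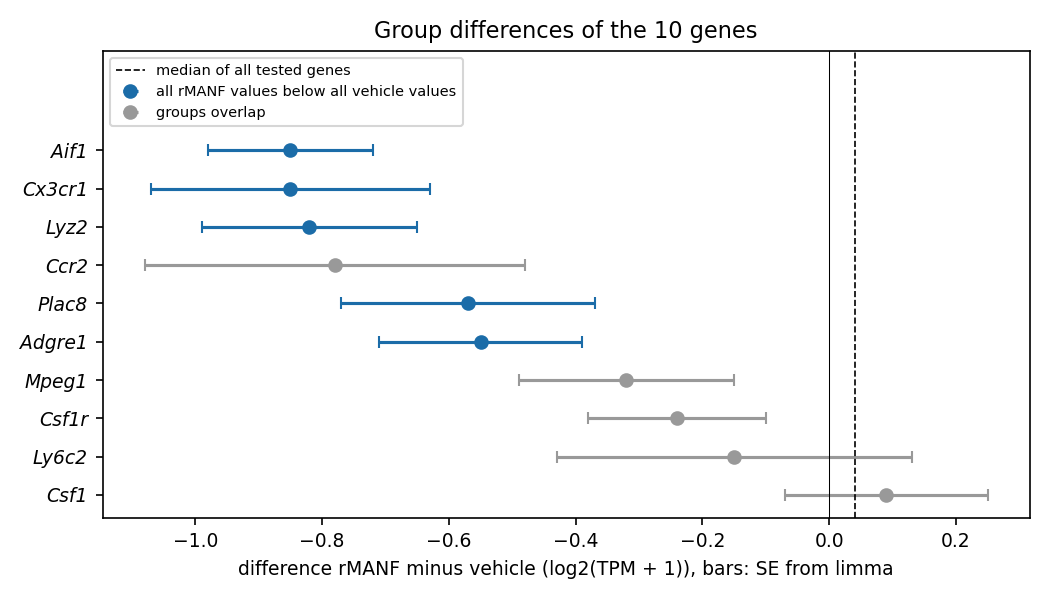
Difference between groups for each gene (rMANF minus vehicle, log2(TPM + 1); bars are the standard error from limma). Blue marks the 5 genes whose groups do not overlap, grey the other 5, and the dashed line the median of all tested genes at 0.04; Aif1 and Cx3cr1 lie lowest at −0.85 and Csf1 highest at 0.09.

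The monocyte genes split between the chemokine receptors and Ly6c2. Cx3cr1, the receptor for fractalkine (chromosome 9, 119901616 to 120069879, minus strand), measured 4.22, 4.79 and 5.43 TPM under vehicle, against 2.43, 3.10 and 1.37 TPM under rMANF, with no overlap between the groups. Its difference of −0.85 ± 0.22 (limma, adjusted p = 0.115) depended on the 1 TPM added before taking logs, since the gene is so low, and was −1.10 with 0.1 TPM added and −0.43 with 5 TPM added. Ccr2, the receptor that brings classical monocytes out of the marrow (chromosome 9, 124101950 to 124113557, plus strand), measured 18, 17.6 and 12.3 TPM under vehicle, against 14.1, 8.76 and 5.21 TPM under rMANF. The groups overlapped because rMANF replicate 1 lay above vehicle replicate 3, and the difference was −0.78 ± 0.30 (limma, adjusted p = 0.201). Plac8, a small cysteine-rich protein gene that is high in classical monocytes (chromosome 5, 100553725 to 100572245, minus strand), measured 72.9, 67.3 and 53.7 TPM under vehicle, against 53.6, 47.5 and 31 TPM under rMANF. The groups were separated by no more than the gap between 53.7 and 53.6 TPM, and the difference was −0.57 ± 0.20 (limma, adjusted p = 0.180).

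Ly6c2, a surface antigen of classical monocytes, measured 139, 134 and 123 TPM under vehicle, against 168, 139 and 71.2 TPM under rMANF. The rMANF libraries thus held both the highest and the lowest value, and the difference of −0.15 ± 0.28 (limma, adjusted p = 0.801) turned to 0.21 without rMANF replicate 3. Ly6c1, its copy, which is also expressed by endothelium, measured 134, 123 and 91.1 TPM and 110, 120 and 123 TPM, a difference of 0.03 ± 0.14 (limma, adjusted p = 0.921) that turned to −0.13 without vehicle replicate 3. Ly6c2 held between 36.7% and 60.4% of the sum of both copies. The sum differed by −0.04 log2 units, with 248 ± 30.4 TPM for vehicle and 244 ± 44.0 TPM for rMANF (SD, n = 3 each). The sum still depends on how common reads were handled, also those shared with genes outside the pair. Of the stretches of 31 bases in Ly6c1, 15.7% also occur in Ly6a and 4.1% in Ly6i.

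For the CSF1 receptor and its ligands the groups overlapped. Csf1r measured 25.8, 29.4 and 33.1 TPM under vehicle, against 27.1, 26.9 and 20.4 TPM under rMANF. rMANF replicates 1 and 2 lay within the range of the vehicle libraries, and the difference was −0.24 ± 0.14 (limma, adjusted p = 0.371). Csf1, which fibroblasts, endothelium and tumour cells can also make (chromosome 3, 107741048 to 107760469, minus strand), measured 102, 76.1 and 65.3 TPM under vehicle, against 93.8, 83.4 and 78.8 TPM under rMANF. All rMANF values were inside the vehicle range, and the difference of 0.09 ± 0.16 (limma, adjusted p = 0.783) turned to −0.05 without vehicle replicate 3. Il34, the other ligand of the receptor, measured 49.6 ± 6.25 and 61.7 ± 6.80 TPM (SD, n = 3 each), a difference of 0.31 ± 0.12 (limma, adjusted p = 0.215).

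rMANF replicate 3 was the lowest of the rMANF libraries for all 10 genes, and the lowest of all 6 libraries for 9 of the 10, all but Csf1. Over all tested genes the same library was lowest of the rMANF libraries for 45.4% and lowest of all 6 for 19.7%. Without it the median difference of the 10 genes was −0.38, and the same 5 genes still had both remaining rMANF values below all vehicle values, against 10.5% of all tested genes in that comparison. The differences of Ccr2 (−0.46), Plac8 (−0.34), Csf1r (−0.11) and Mpeg1 (−0.13) shrank by over 1.5 times without it, whereas Aif1 stood at −0.73, Lyz2 at −0.65, Cx3cr1 at −0.63 and Adgre1 at −0.43. Leaving out rMANF replicate 1 took Ly6c2 to −0.40, and leaving out vehicle replicate 3 took Csf1r to −0.16.

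The vehicle libraries also differed among themselves. Vehicle replicate 3 had the lowest Ccr2, Ly6c2 and Plac8 of the vehicle libraries but the highest Csf1r, Adgre1 and Cx3cr1. Relative to each gene's mean over the 6 libraries, vehicle replicate 3 stood at 0.55 log2 units for Adgre1 and 0.57 for Cx3cr1, and at 0.06 for Ccr2, 0.03 for Plac8 and −0.02 for Ly6c2. Vehicle replicate 1 showed another order, with 0.58 for Ccr2 and 0.47 for Plac8 against 0.13 for Adgre1 and −0.06 for Csf1r.

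**Figure D3:**
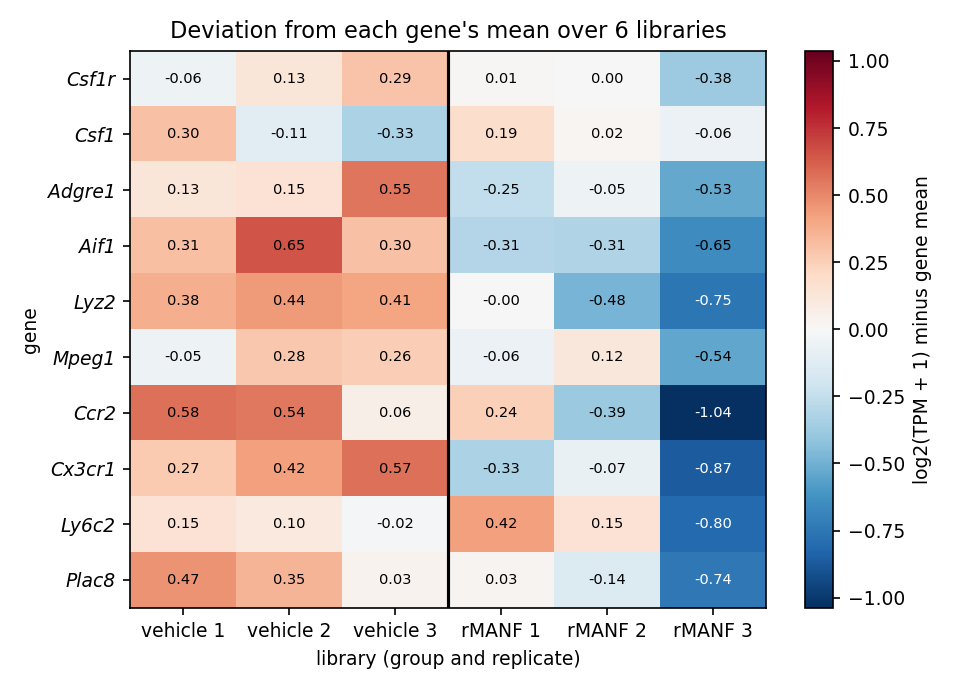
Deviation of each gene from its own mean over the 6 libraries (log2(TPM + 1); red above, blue below), with vehicle libraries left of the black line and rMANF libraries right of it. rMANF replicate 3 is negative for every gene, down to −1.04 for Ccr2, while Ly6c2 is positive in rMANF replicates 1 (0.42) and 2 (0.15).

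Ratios within a library cancel a common scaling of that library, and some of them differed between groups while others did not. Of the 45 pairs of the 10 genes, 17 had ratios that did not overlap between groups on the log2(TPM + 1) scale, and 28.5% of all pairs of tested genes did so. The 4 ratios plotted were chosen after their values were seen. The ratio of Aif1 to Csf1r, taken from TPM, was 5.39, 5.98 and 4.18 in the vehicle libraries and 3.33, 3.33 and 3.45 in the rMANF libraries. Lyz2 to Csf1r gave 36.8, 33.8 and 29.4 against 27.0, 19.4 and 21.2. Both ratios were thus lower in every rMANF library, rMANF replicate 3 included. Ly6c2 to Ccr2 was 7.74, 7.6 and 10.1 with vehicle and 11.9, 15.8 and 13.7 with rMANF, so that it was higher in every rMANF library. Csf1 to Csf1r overlapped, at 2.83 ± 1.01 and 3.47 ± 0.379 (SD, n = 3 each).

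**Figure D4:**
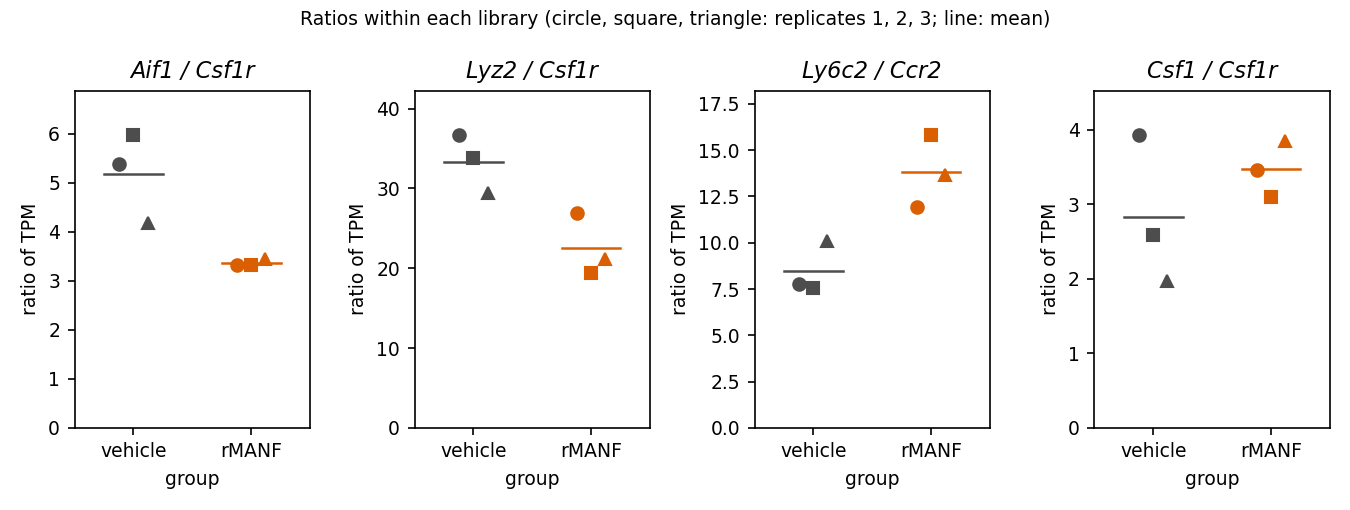
Ratio of TPM between 2 genes within each library for 4 pairs (vertical axes from 0; circle, square and triangle are replicates 1, 2 and 3, lines are group means; grey vehicle, orange rMANF). Aif1 and Lyz2 relative to Csf1r lie lower in all 3 rMANF libraries, Ly6c2 relative to Ccr2 higher, and Csf1 relative to Csf1r overlaps.

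Genes that act with the 10 were taken from lists, some of which share genes (Itgam, Csf2ra). Of 15 genes of monocyte entry into tissue, limma called 0 over all genes, and 13 lay lower and 2 higher. For 8 of the 15 the rMANF values lay lower without overlap, against 9.02% of all tested genes. Among the monocyte chemoattractant genes, Ccl8, which in the mouse acts mainly through CCR8, measured 807, 849 and 525 TPM under vehicle, against 252, 310 and 222 TPM under rMANF (difference −1.45 ± 0.20; limma, adjusted p = 0.0893), and the CCR2 ligand Ccl12 measured 166, 159 and 160 TPM against 90.3, 50.6 and 99.0 TPM (−1.06 ± 0.22; limma, adjusted p = 0.0947). Ccl2, the best known of these ligands, overlapped at 380 ± 58.1 and 393 ± 37.5 TPM (SD, n = 3 each). Ccl7, another of them, overlapped as well, with 485, 301 and 212 TPM in the vehicle and 245, 210 and 246 TPM in the rMANF libraries (−0.43 ± 0.26; limma, adjusted p = 0.398). Itgam, the integrin chain CD11b, lay lower at 17.7 ± 2.12 and 11.3 ± 2.12 TPM (SD, n = 3 each). Cx3cl1, which encodes the ligand of CX3CR1, measured 1.55 ± 0.313 and 1.96 ± 0.317 TPM and overlapped.

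Of 20 other general macrophage genes, limma called 0 over all genes, and 19 lay lower and 1 higher, with a median of −0.44. There was no overlap for 11 that lay lower, against 9.02% of all tested genes. The signalling chain gene Fcer1g measured 576 ± 70.5 and 314 ± 45.0 TPM, the membrane protein gene Ms4a7 123 ± 5.19 and 83.9 ± 13.5 TPM and the scavenger receptor gene Msr1 55.3 ± 5.33 and 36.3 ± 7.18 TPM (SD, n = 3 each). The exception was the galectin gene Lgals3, which is not confined to macrophages, with 1249, 1450 and 1348 TPM for vehicle and 1519, 1590 and 1665 TPM for rMANF. Of 18 monocyte subset genes 13 lay lower and 5 higher (median −0.23), and limma called 0. The neighbours of Ly6c2 in classical monocytes did not share 1 direction. Chil3 measured 21.0, 12.8 and 10.7 TPM and 32.4, 19.2 and 11.5 TPM, and Ms4a4c 67.9, 65.8 and 63.1 TPM and 59.3, 59.6 and 34.8 TPM.

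Of 19 genes that signal downstream of CSF1R, limma called 0, 12 lay lower and 7 higher, with a median of −0.18. The adaptor gene Dok2 measured 12.4 ± 2.53 and 8.32 ± 0.983 TPM, and its relative Dok1 lay the other way with 22.6 ± 1.28 and 31.9 ± 1.75 TPM (SD, n = 3 each; limma, adjusted p = 0.142 and 0.0893). Of 15 myeloid transcription factors 8 lay lower and 7 higher, with a median of −0.06, and limma called 0. Spi1, which encodes the master regulator PU.1, measured 30.9, 33.1 and 36.1 TPM under vehicle, against 31.4, 31.7 and 24.9 TPM under rMANF. Irf8, a regulator of the monocyte lineage, measured 30.6, 37.2 and 34.0 TPM and 30.4, 36.0 and 30.8 TPM. Both overlapped, unlike Maf (12.9 ± 1.40 and 9.08 ± 1.68 TPM), which lay lower, and Klf4 (9.55 ± 0.884 and 16.0 ± 1.23 TPM), which lay higher and is also expressed outside myeloid cells. Of 6 tested genes in a list of related colony-stimulating factors and receptors, Il34 included, 4 lay lower and 2 higher, and limma called 0. For 2 of the 6 the rMANF values lay lower without overlap, against 9.02% of all tested genes. These were Csf2ra (17.6 ± 1.85 and 12.6 ± 2.66 TPM) and Csf3r (5.03 ± 0.417 and 3.59 ± 0.404 TPM). Csf2rb overlapped at 5.34 ± 0.605 and 4.14 ± 1.08 TPM (SD, n = 3 each).

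**Figure D5:**
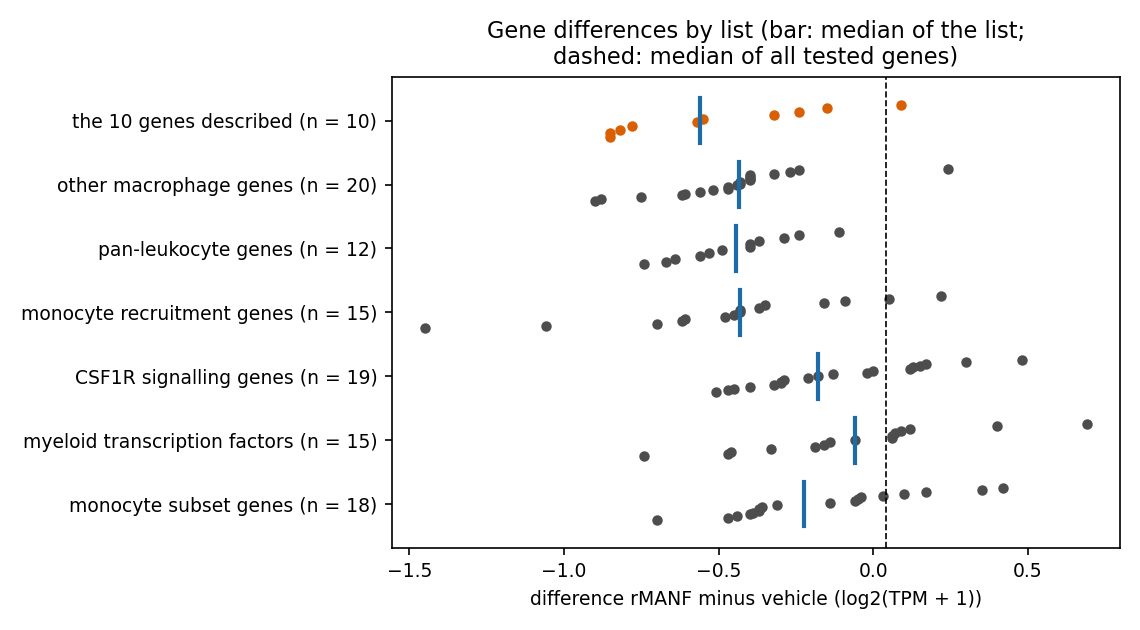
Difference of each tested gene (rMANF minus vehicle, log2(TPM + 1)) in the 10 genes described (orange) and 6 related lists (grey); blue bars are list medians and the dashed line is the median of all tested genes. The list medians run from −0.56 for the 10 genes to −0.06 for the myeloid transcription factors.

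Markers of some other immune cells differed between the groups as well, but limma called 0 of them over all genes. Of all tested genes, 9.02% lay lower and 18.9% higher without overlap. All 12 genes of leukocytes in general lay lower (median −0.45), 7 without overlap, and they summed to 1268 to 1563 TPM over the vehicle libraries and 801 to 1066 TPM over the rMANF libraries. Ptprc, the pan-leukocyte antigen CD45, measured 35.3, 34.4 and 35.1 TPM under vehicle, against 24.2, 31.8 and 19.1 TPM under rMANF, with the lowest value again in rMANF replicate 3. All 11 tested markers of T and NK cells lay lower, 6 without overlap, and the 14 with rows summed to 47.8 to 117 TPM and 20.4 to 42.1 TPM. Some NK cells express Cx3cr1 and T cells can express Ly6c2 and Ccr2, and the part of these cells in the results was not tested. All 6 tested neutrophil markers lay lower, 1 without overlap, and the 11 with rows had a joint level of 213 TPM in vehicle replicate 1, 43.1 in replicate 2 and 24.5 in replicate 3, against 18.8 to 37.7 TPM with rMANF. Neutrophils also express Lyz2, Plac8 and Csf3r. Of the vehicle libraries, replicate 1 had the highest Plac8 and the lowest Lyz2, and the part of neutrophils in the results was not tested. The neutrophil markers went different ways in level. Ly6g and Elane did not pass 0.730 and 0.228 TPM and were listed at 0 in 3 and 5 of the 6 libraries. S100a9 measured 120, 9.50 and 3.65 TPM under vehicle, against 6.56, 3.67 and 3.38 TPM under rMANF. S100a8 measured 67.0, 18.4 and 12.3 TPM, against 19.5, 12.8 and 8.31 TPM. Of 7 tested dendritic cell markers 5 lay lower and 2 higher, and all 11 listed summed to 206 to 227 TPM over the vehicle and 244 to 273 TPM over the rMANF libraries. Most of that sum was Fscn1, which other cells express too, with 171, 180 and 197 TPM and 248, 221 and 220 TPM. The other 10 summed to 30.2 to 37.3 TPM with vehicle and 23.5 to 27.3 TPM with rMANF. Dendritic cells also express several of the 10 genes, and their part in the results was not tested. Of 4 tested B cell markers 3 lay lower and 1 higher, 0 of them without overlap. Of 5 tested markers of mast cells and basophils 4 lay lower and 1 higher, with 1 in each direction without overlap.

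The same held for some lists of markers outside the immune system, of which limma also called 0. The shares of all tested genes without overlap were again 9.02% lower and 18.9% higher. All 15 skeletal muscle markers lay lower, 10 without overlap. Eno3, which is also in the monocyte subset list, overlapped at 125 to 172 TPM and 141 to 159 TPM. The other 14 had a joint level of 114 TPM in vehicle replicate 1, 1259 in replicate 2 and 28.1 in replicate 3, against 7.28 to 19.8 TPM over the rMANF libraries, with Acta1 at 31.4, 232 and 5.43 TPM and at 3.46, 0.339 and 0.343 TPM. With the mean log2 level of the 15 as a covariate the differences were −0.63 for Aif1, −0.75 for Lyz2, −0.88 for Cx3cr1 and −0.73 for Adgre1 (limma, adjusted p = 0.746 for each). They were −0.40 for Plac8 and −0.49 for Ccr2 (limma, adjusted p = 0.778 and 0.799). The muscle level was higher in every vehicle library (1.575 to 5.733) than in every rMANF library (0.8477 to 1.336). This fit therefore separates the muscle level from the group only through the spread within groups, mostly among the 3 vehicle libraries. The part of the muscle level in the results was not tested. Of 10 fibroblast markers 7 lay lower, 5 without overlap (sums of 344 to 492 and 276 to 369 TPM), and of 12 endothelial markers 11 lay higher, 4 without overlap (167 to 213 and 224 to 252 TPM). The part of fibroblasts and endothelium in the level of Csf1 and Ly6c1 was not tested. Of 5 tested erythroid markers 4 lay lower and 1 higher, 0 of them without overlap.

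The start sites of the genes were searched for the core of the PU.1 site, GAGGAA, on both strands, because PU.1 is the factor best known to drive macrophage genes. Windows of 300 bases (250 before to 50 after the start, RefSeq, GRCm38.p6) were found for 8 of the 10 genes, not for Adgre1, and that of Csf1r was not used here. The core occurred for 3 of the 8 (Aif1, Plac8 and Ly6c2), against 31.3% of all 27025 genes with a window, and the longer GAGGAAGT, which contains it, for 1 of the 8 (Ly6c2), against 3.69%. The bases before the start site are printed for Aif1 and Plac8, which lay lower with rMANF without overlap, 5′ to 3′ on the minus strand with the core in capitals (as TTCCTC where it is on the other strand). That of Aif1 is chr17:35176053-35176302, with 1 match beginning 7 bases before the start, and that of Plac8 chr5:100572206-100572455, with matches beginning 146 and 15 bases before it. These starts are those of RefSeq. The GENCODE genes given above reach further, to 35176068 for Aif1 and 100572245 for Plac8, so the last printed bases lie inside them. Another Plac8 window, chr5:100563047-100563346, had no match.
Aif1: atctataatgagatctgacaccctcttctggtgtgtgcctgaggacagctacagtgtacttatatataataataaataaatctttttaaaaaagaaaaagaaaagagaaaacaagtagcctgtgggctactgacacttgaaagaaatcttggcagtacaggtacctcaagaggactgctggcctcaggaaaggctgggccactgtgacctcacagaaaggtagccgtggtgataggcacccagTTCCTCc
Plac8: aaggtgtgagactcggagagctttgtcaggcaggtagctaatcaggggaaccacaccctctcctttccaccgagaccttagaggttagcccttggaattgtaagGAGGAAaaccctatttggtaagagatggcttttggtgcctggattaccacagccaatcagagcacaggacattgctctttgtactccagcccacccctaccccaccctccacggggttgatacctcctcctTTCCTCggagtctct
Lyz2 and Cx3cr1, whose groups did not overlap either, had no match in their windows.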

How the data were processed

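RNA of 3 vehicle and 3 rMANF samples was sequenced. Per the labels' protocols, libraries were made from QIAzol-extracted RNA with Nextera XT, an unstranded kit. HTSeq 0.11.0, Salmon 0.14.1, fastp, cutadapt and the build mm10 are named per the submitters' processing notes, without saying which tool gave the final values. The deposited table holds log2 TPM per gene. A value of −9 was read as 0 TPM, and the TPM summed in each library to the total that TPM has by definition, within 19.5, with 18830 to 19298 genes above 0. Columns of other samples numbered 0. TPM keeps no depth, so the depth is unknown and no counting interval was computed. The labels call the samples biological replicates.

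Differences are rMANF minus vehicle on log2(TPM + 1). Genes had to reach a mean of 1 TPM, which left 12865, and entered limma 3.58.1 (R 4.3.3; mean trend, two-sided, Benjamini-Hochberg adjusted over all of them, threshold 0.05). An exact permutation of 3 against 3 cannot go below p = 0.1, so whether groups overlap is given instead. On simulated data with 12865 genes, 69.7% of 200 genes changed by 1 log2 unit were recovered, with 3.29% of calls false. Of 200 genes changed by 2 log2 units, 94.5% were recovered, with 4.63% of calls false. Changes under 1 log2 unit were not simulated. The monocyte and macrophage genes followed here differed by −0.85 to 0.09. The recovery rates therefore do not show how often limma would miss differences of that size.

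The 10 genes and all lists were chosen with earlier results of these data known. Of each other list, genes were named from the 4 of smallest p and the 2 of highest mean TPM, with Ly6c1, Lyz1, Il34 and Cx3cl1 always. Further genes were chosen after their values were seen: Chil3, Spi1, Irf8, Ptprc, Ly6g, Elane, Nppa, Actc1, Pmel, Sox10 and Ccl7. Alternatives covered pseudocounts, filters, scalings, variance models, library weights, the replicate block, GC content (found for 99.7% of tested genes), the skeletal muscle level and left-out libraries.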

Additional observations from a re-analysis of the deposited data

How the results depend on the processing

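Over the alternatives run, Csf1r, Adgre1, Aif1, Ccr2, Cx3cr1, Plac8, Lyz2 and Mpeg1 kept a negative difference in each. Leaving out 1 library, Csf1 ran from −0.05 (without vehicle replicate 3) to 0.27 and Ly6c2 from −0.40 to 0.21 (without rMANF replicate 3), neither called either way. The median of the 10 genes ran from −0.65 to −0.38 over the fits that left out 1 library, and the number with all rMANF values below all vehicle values from 5 to 7, while the share over all tested genes ran from 10.5% to 14.9%, against 9.02% with all 6 libraries. Cx3cr1 moved from −0.85 to −0.43 with 5 TPM added. The number of genes called over all genes was 0 with limma, 737 with library weights (4 of them among the 10: Adgre1, Aif1, Cx3cr1 and Lyz2), 13 without vehicle replicates 1 and 2, 351 at a threshold of 0.10 (2 of the 10), and 0 to 4 over the fits that left out 1 library. At an unadjusted p under 0.05 limma counted 2642 genes. The replicate block gave 3 genes and 0 of the 10. The labels share replicate numbers without saying that these pair the samples. Deviations of same-numbered libraries from their group means correlated at −0.0694, 0.0291 and 0.0495 across genes. With 3 libraries per group, such values cannot show whether the samples were paired. Vehicle replicate 2 correlated best with rMANF replicate 1 (0.12). The count of 737 with library weights rests on unequal trust in the libraries; the cause was not tested. The depth is unknown, so its limit on Cx3cr1 and Ccr2 cannot be stated.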

Other observations

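The 6 genes outside the 10 whose levels over the 6 libraries most resembled the mean of the 10 were Havcr2, Fcgr1, Shtn1, Rfc5, Synj2bp and Tent5a, with Pearson r from 0.985 to 0.991, given as a description over 6 libraries with no p. Within groups, as deviations from the group means, r was 0.966 to 0.992. The genes were picked for their r over these same libraries, so the values within groups are no separate support. Havcr2, the checkpoint receptor TIM-3, gave 6.89, 7.30 and 7.02 TPM under vehicle, against 6.34, 5.28 and 3.21 TPM under rMANF. Fcgr1, the high-affinity Fc receptor CD64 of macrophages, measured 42.7, 42.9 and 41.1 TPM and 33.9, 34.9 and 23.5 TPM. Rfc5, a replication factor gene, differed by −0.17.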
